A study of Mus musculus with 9 samples.

Results

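Collagens are the genes of collagen chains, taken here as every protein-coding gene with a symbol made of Col, a type number, the letter a and a chain number. This rule found 44 genes among the 55357 Ensembl gene identifiers of the deposited table. By class they were 11 fibrillar chains, 9 basement membrane chains, 4 transmembrane chains, 6 chains of beaded filaments, 9 fibril-associated chains with interrupted helices (FACIT), 3 short-chain network chains and 2 others. They were measured by poly(A) RNA-seq in keratinocytes sorted from the back skin of C57BL/6 mice at postnatal day 60, with 3 libraries per group. All mice had the genotype TNC-CREER; tdTomato, a tamoxifen-inducible recombinase tied to Tenascin-C with a red reporter, and all received tamoxifen at 100 µg per g on postnatal days 51 and 52. Cells of every group were EPCAM-positive and integrin α6-positive. Those called Touchdome were also positive for SCA1 and the reporter, IFE (interfollicular epidermis) cells were SCA1-positive without the reporter, and HF (hair follicle) cells had neither. The reporter marks cells by Tenascin-C activity around the time of injection, and HF holds any follicle cell of that gate, so neither group is 1 defined cell type.

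A collagen molecule is a rope of 3 chains, whose glycine-rich repeats wind around each other. Some types join copies of a single chain and others need different chains, so that a cell has to make each partner. Fibrillar collagens I, III and V form the fibres of the dermis and are known chiefly as products of fibroblasts. Collagen IV is the meshwork of basement membranes, collagen VII forms the anchoring fibrils beneath them, and collagen XVII spans the keratinocyte membrane in hemidesmosomes. The hair follicle bulge is known to secrete a matrix of its own.

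Tnc, Ly6a and Krt5 check the sort. Tnc stood at 200.4 to 288 CPM in Touchdome, 1.13 to 7.16 CPM in IFE and 40.6 to 56.9 CPM in HF, and Ly6a, which encodes SCA1, at 104 to 140.5 CPM, 112 to 179.6 CPM and 0.422 to 1.90 CPM. Tnc was thus highest in Touchdome, but HF, sorted without the reporter, lay well above IFE. CPM is the count scaled to library size, with TMM factors. Krt5, the basal keratin, reached at least 10705 CPM in each of the 9 libraries. It was lowest in HF, at 10705 to 11237 CPM, against 17358 to 19972 CPM in Touchdome and 21825 to 24557 CPM in IFE. Total counts per library ran from 9295059 to 28249763, so that 3 counts, the limit a count of 0 allows, came to 0.114 to 0.316 CPM. Touchdome replicate 3 stood apart from replicates 1 and 2, lying nearer to HF on the first principal component of all genes tested (-2.86, against -37.6 and -40.7, with HF at 89.2 to 98.7). Results that rest on Touchdome replicate 3 are given with and without it. IFE replicate 2 also stood apart from its group, at -55.2 on the second principal component, against -12.8 and -6.22. Its counts differed from those of the other IFE libraries by a chi-square over degrees of freedom of 76.7 and 71.9. All other pairs within a group gave 17.1 to 27.3. Whether a group's libraries came from separate mice is not stated by the labels. The p-values therefore reflect spread among libraries that may be partly technical.

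Of the 44 genes, 28 passed the count filter and 16 did not. Col22a1, Col26a1, Col6a5 and Col9a1 had 0 counts in all 9 libraries. The other 12 that did not pass lay at or below 1.23 CPM in every library, except Col6a3, with up to 7.89 CPM in Touchdome replicate 3. At a mean of at least 1 TPM (transcript abundance scaled for gene length and library) there were 22 collagen genes in Touchdome, 14 in IFE and 25 in HF. At 10 TPM there were 11, 11 and 14. A gene that passed the filter only through the group where it was high had to differ between groups, so the counts below describe these genes and are not evidence about collagens as a whole.

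**Figure D1:**
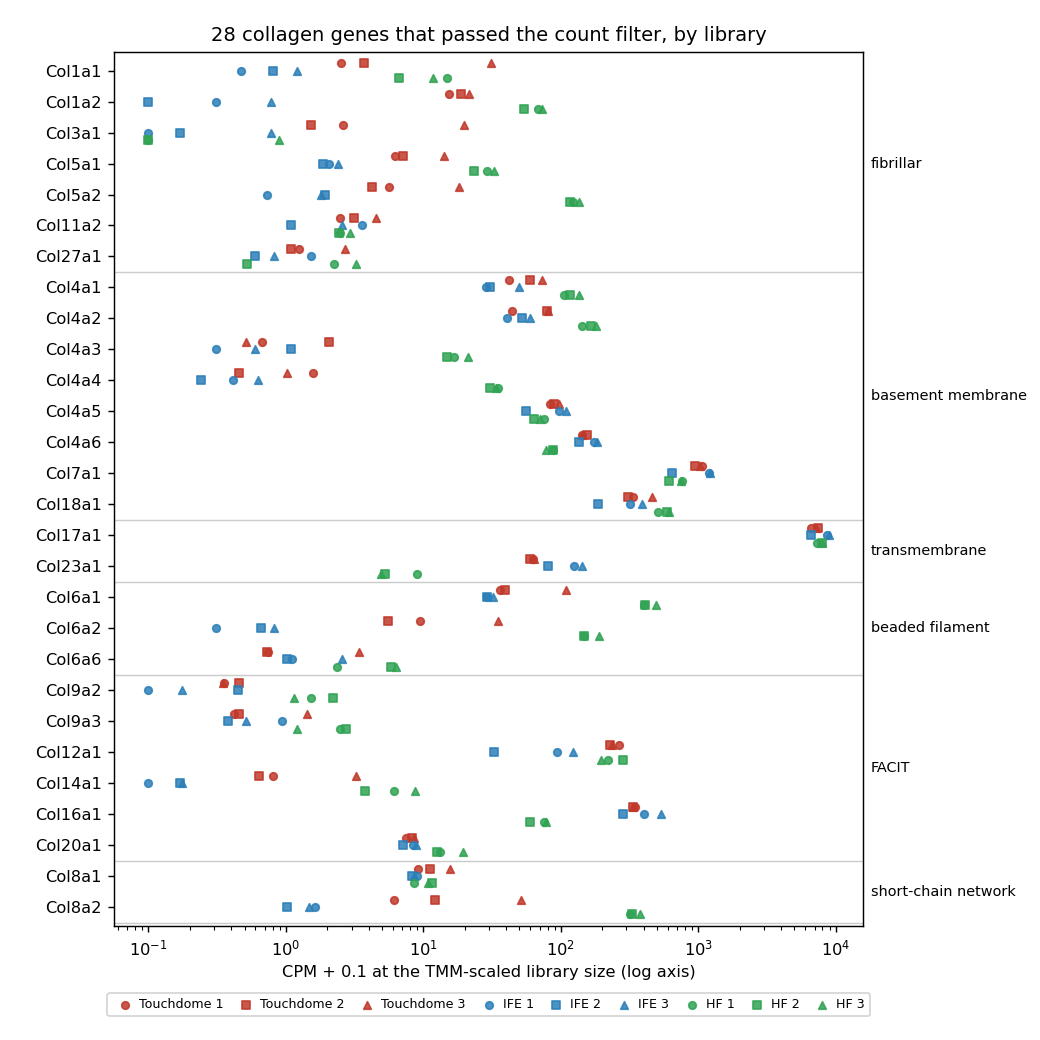
CPM (plus 0.1, log axis) of the 28 collagen genes that passed the count filter, in each of the 9 libraries, ordered by class (colour: group, symbol: replicate). HF libraries stand furthest to the right for Col1a2, Col5a2, Col6a1, Col6a2 and Col8a2, and furthest to the left for Col16a1 and Col23a1, and Touchdome replicate 3 lies nearest to HF among Touchdome libraries for Col5a2, Col6a2 and Col8a2.

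In bulk samples such as these, fewer cells of a type and less RNA per cell cannot be told apart, which applies to every comparison of groups here. Across all genes tested, 17.1% were called higher and 16% lower in HF than in IFE (edgeR, Benjamini-Hochberg adjusted p under 0.05). Of the 28 collagen genes tested, 16 were higher and 3 lower. Their median log2 fold change was 1.67, against 0.00424 over the 15046 genes tested. Of these calls, 11 of the 16 and 3 of the 3 held in all 18 alternative settings. Touchdome against HF gave 3 higher and 12 lower, where 11.8% and 12.8% of all genes were called (medians -0.971 and -0.00377). Touchdome against IFE gave 3 higher and 0 lower, where 1.22% and 0.0798% were called (medians 0.754 and 0.00477), and 12 higher and 1 lower had an unadjusted p under 0.05. In that comparison 11 collagen genes had all 3 Touchdome libraries above all 3 of IFE, where 8.32% of all genes did, and 1 had them all below, where 6.27% did. With the replicate block, taken to apply to this comparison but fitted over all 9 libraries, the calls were 6 and 1. With DESeq2 they were 8 (Col1a1, Col1a2, Col5a1, Col5a2, Col6a2, Col8a2, Col12a1 and Col14a1) and 1 (Col23a1). Of the 28 genes, 12 were higher in HF than in both other groups and 3 were lower than in both, comparisons that share the HF libraries. These 3 were Col16a1, Col23a1 and Col4a6, and 9 of the 28 were called in no comparison.

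**Figure D2:**
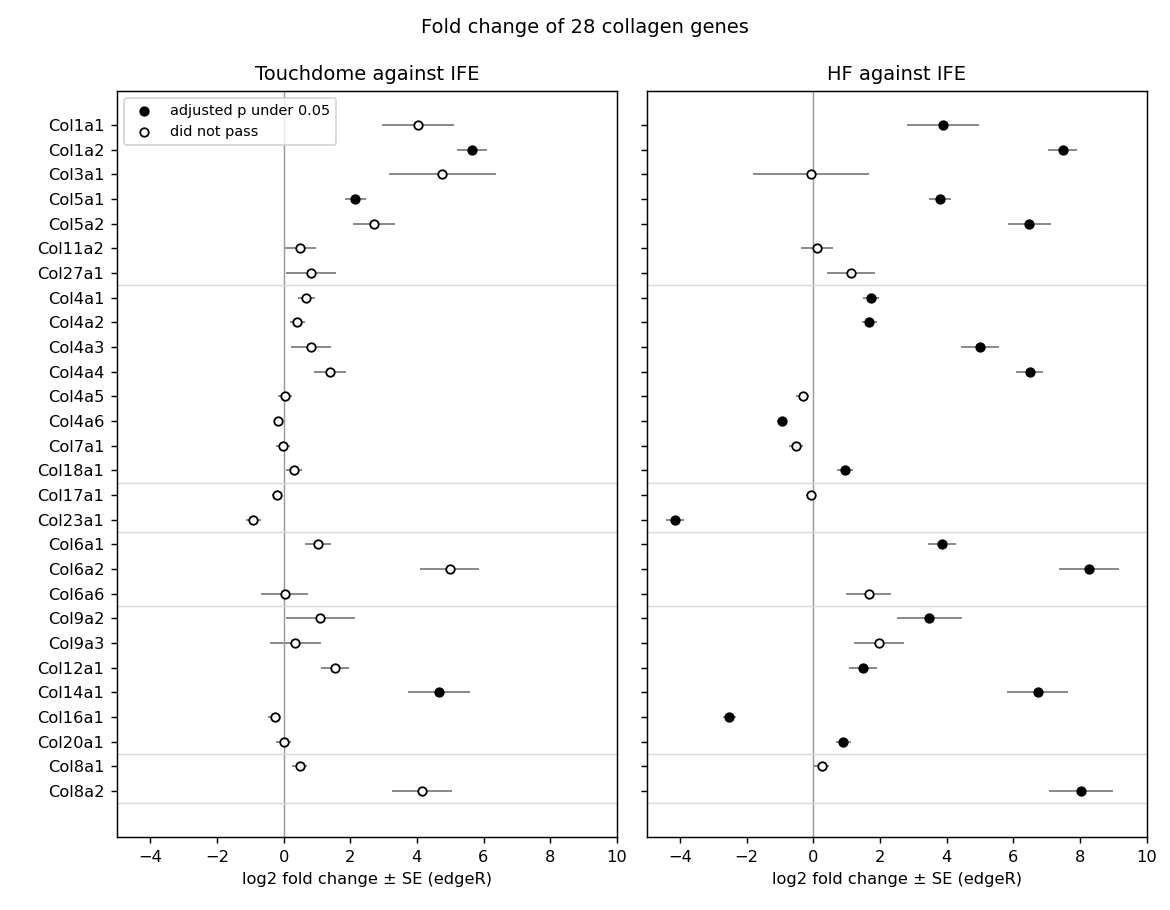
Log2 fold change ± SE (edgeR) of the 28 collagen genes tested, for Touchdome against IFE (left) and HF against IFE (right), which share the IFE libraries (filled: adjusted p under 0.05). On the left Col1a2, Col5a1 and Col14a1 are filled, and on the right 16 genes are filled above 0 and Col4a6, Col16a1 and Col23a1 below it; the position of Col14a1 depends on the prior count, since IFE held 3 counts of it.

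One transmembrane chain outweighed the rest. Col17a1 (ENSMUSG00000025064), which encodes the collagen XVII of hemidesmosomes, had 2313, 2744 and 2681 TPM in Touchdome replicates 1 to 3, 2919, 2420.3 and 2939 TPM in IFE, and 2779, 2937 and 3028 TPM in HF. It made up 74.8% ± 2.32 of the summed collagen TPM in Touchdome, 78.5% ± 1.31 in IFE and 71.2% ± 1.65 in HF (SD, n = 3 each). In TPM, IFE overlapped both other groups and every HF library was above Touchdome, while in CPM (6595, 7454 and 7180.5 CPM in Touchdome, 8665, 6654 and 8946 CPM in IFE and 7278, 8000.3 and 7996 CPM in HF) all groups overlapped. No comparison passed. Its log2 fold change was -0.19 ± 0.15 (SE) for Touchdome against IFE, -0.13 ± 0.15 for Touchdome against HF and -0.06 ± 0.15 for HF against IFE. Their 95% intervals, -0.52 to 0.13, -0.46 to 0.19 and -0.38 to 0.26, bound the differences that these libraries leave. With Col17a1 set aside, basement membrane chains took 65.3% ± 1.64, 65.7% ± 1.72 and 51.3% ± 1.35 of the remaining collagen TPM in Touchdome, IFE and HF. FACIT chains took 24.9% ± 3.22, 27.8% ± 1.21 and 7.86% ± 1.10, beaded filament chains 3.79% ± 2.51, 1.57% ± 0.134 and 22.2% ± 1.03, short-chain chains 1.45% ± 1.06, 0.416% ± 0.0562 and 12.3% ± 0.657, and fibrillar chains 2.33% ± 1.33, 0.373% ± 0.134 and 6.09% ± 0.676 (SD, n = 3). Touchdome replicate 3 was the highest of its group for beaded filament (6.69%, against 2.31% and 2.38% in replicates 1 and 2), short-chain (2.65%, against 0.629% and 1.07%) and fibrillar chains (3.87%, against 1.56% and 1.57%). The 250 bases before the Col17a1 start site, in the RefSeq table for GRCm38.p6, follow, with those of Col23a1 (ENSMUSG00000063564), the transmembrane chain that did differ. Coordinates are those of that table, a different build from the authors' mm39. Capitals mark matches, on either strand, to the TATA box letters TATAAA, to CCAAT, and to the GC box letters GGGCGG.
Col17a1 (chr19:47692043-47692292, minus strand): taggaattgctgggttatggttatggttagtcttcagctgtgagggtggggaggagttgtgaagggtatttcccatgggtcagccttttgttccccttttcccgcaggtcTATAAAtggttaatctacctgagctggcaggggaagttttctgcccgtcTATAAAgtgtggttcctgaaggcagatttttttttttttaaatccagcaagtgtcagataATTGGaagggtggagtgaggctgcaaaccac
Col23a1 (chr11:51289670-51289919, plus strand): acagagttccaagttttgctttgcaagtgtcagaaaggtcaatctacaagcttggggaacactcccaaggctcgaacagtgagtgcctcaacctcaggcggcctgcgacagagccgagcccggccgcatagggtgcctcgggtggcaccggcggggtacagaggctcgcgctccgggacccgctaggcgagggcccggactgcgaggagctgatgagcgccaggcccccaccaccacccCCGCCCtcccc
The Col17a1 stretch held 2 TATAAA matches and 1 CCAAT match, which 12.4% and 33.8% of all 32851 windows of that length hold at least once, and had a GC content of 46%. That of Col23a1 had 66% and 1 GC box match, which 32.7% of windows hold. These matches describe letters and are not known sites. The table held windows for 35 of the 44 genes, 38 in all, of which 22 held GGGCGG, 13 CCAAT, 5 TATAAA and 1, that of Col6a1, TGANTCA, the AP-1 motif. The shares of all windows were 32.7%, 33.8%, 12.4% and 6.75%.

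Col23a1, which encodes the transmembrane collagen XXIII, was lower in HF. It stood at 62.5, 59.2 and 63.3 CPM in Touchdome, 125, 80.1 and 141 CPM in IFE and 8.91, 5.16 and 4.85 CPM in HF. The 3 groups did not overlap, with IFE above Touchdome and Touchdome above HF. Against IFE, HF was lower, with a difference of -4.16 ± 0.27 on the log2 scale (adjusted p = 1.21e-06, edgeR), and Touchdome was higher than HF by 3.25 ± 0.26 (adjusted p = 9.38e-06). Touchdome against IFE was -0.90 ± 0.23 and did not pass (adjusted p = 0.114), but passed with the replicate number as a block (-0.87, adjusted p = 0.0453), without IFE replicate 2 (adjusted p = 0.02) and without HF replicate 1 (adjusted p = 0.0395). The other transmembrane chains were scarce. Col25a1 had 33 counts in HF and 0 in IFE, at least 14.1-fold higher against 3 counts over the group, and 7 counts in Touchdome, all in replicate 3. Col13a1 had 12 counts over all 9 libraries.

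Of the 11 fibrillar chains, 7 were tested: HF exceeded IFE for 4 and lay below it for 0, Touchdome exceeded HF for 0 and lay below it for 3, and Touchdome exceeded IFE for 2 and lay below it for 0. The shares of all genes called were 17.1% and 16% in the first, 11.8% and 12.8% in the second, and 1.22% and 0.0798% in the last of these comparisons. Col1a2 (ENSMUSG00000029661), the α2 chain of collagen I, was the fibrillar chain that differed most firmly between Touchdome and IFE. It had 15.3, 18.6 and 21.5 CPM in Touchdome, 0.210, 0 and 0.681 CPM in IFE and 68.4, 54.1 and 73.3 CPM in HF, with no overlap between groups. Touchdome was higher than IFE by a log2 fold change of 5.66 ± 0.44 (adjusted p = 0.000182, edgeR) and lower than HF (-1.83 ± 0.30, adjusted p = 0.00126). Without Touchdome replicate 3 the value against IFE was 5.53 (adjusted p = 0.000234), and the call held in all 18 alternatives. Col5a1 (ENSMUSG00000026837), a chain of the collagen V that regulates fibre width, had 6.07, 6.97 and 14 CPM in Touchdome, 1.95, 1.76 and 2.31 CPM in IFE and 29.0, 23.1 and 32.7 CPM in HF. It too rose in Touchdome over IFE (2.15 ± 0.32, adjusted p = 0.00434). Without Touchdome replicate 3 the value was 1.68 (adjusted p = 0.00471), though limma on log2(TPM + 1) did not call it (adjusted p 0.27 to 0.616 over its 3 settings). In HF it was higher than in IFE by 3.80 ± 0.32 (adjusted p = 2.28e-06). The upstream stretches of both, the fibrillar chains called between Touchdome and IFE, are these, marked as above.
Col1a2 (chr6:4505368-4505617, plus strand): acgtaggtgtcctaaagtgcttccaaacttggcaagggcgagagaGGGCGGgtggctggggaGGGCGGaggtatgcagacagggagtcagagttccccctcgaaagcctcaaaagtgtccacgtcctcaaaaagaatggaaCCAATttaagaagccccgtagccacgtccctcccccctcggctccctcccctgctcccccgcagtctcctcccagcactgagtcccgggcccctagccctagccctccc
Col5a1 (chr2:27886175-27886424, plus strand): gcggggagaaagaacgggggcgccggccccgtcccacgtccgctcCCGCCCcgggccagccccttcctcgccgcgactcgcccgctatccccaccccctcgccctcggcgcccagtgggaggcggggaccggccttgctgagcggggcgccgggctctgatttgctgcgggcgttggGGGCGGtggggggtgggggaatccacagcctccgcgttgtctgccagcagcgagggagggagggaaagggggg
Col1a2 held 2 GC box matches and 1 CCAAT match, and Col5a1 held 2 GC box matches. Their GC contents were 62% and 76.4%, where the median over all windows was 52.4%.

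Col1a1 (ENSMUSG00000001506), the α1 chain that makes up most of a collagen I molecule, had 2.43, 3.58 and 31.1 CPM in Touchdome, 0.368, 0.703 and 1.10 CPM in IFE and 14.7, 6.53 and 11.7 CPM in HF. Touchdome replicate 3 was far above the other Touchdome libraries and above all of HF. Touchdome against IFE did not pass (4.03 ± 1.08, adjusted p = 0.179, against 0.00264 in DESeq2), and Touchdome against HF was 0.15 ± 0.89 (adjusted p = 0.934) but -1.88 without Touchdome replicate 3 (adjusted p = 0.0126). HF was higher than IFE (3.88 ± 1.07, adjusted p = 0.0255), a call lost in 7 of 18 alternatives, including without any 1 IFE library (adjusted p 0.0704 to 0.102) and without HF replicates 1 or 3 (adjusted p 0.0618 to 0.0648). Per length, the TPM of Col1a2 over that of Col1a1 was 5.38, 9.26 and 7.52 in HF replicates 1 to 3 and 7.58, 5.81 and 0.868 in Touchdome. Col1a2 thus exceeded Col1a1 in all 3 HF libraries and in Touchdome replicates 1 and 2, but not in Touchdome replicate 3. IFE held 22 counts of Col1a2 and 46 of Col1a1 in all.

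Col5a2 (ENSMUSG00000026042), the partner of Col5a1 in collagen V, had 5.56, 4.11 and 17.9 CPM in Touchdome, 0.631, 1.83 and 1.70 CPM in IFE and 122, 116 and 135 CPM in HF, with no overlap. HF was higher than IFE by 6.49 ± 0.64 (adjusted p = 0.000139, edgeR) and Touchdome lower than HF (-3.77 ± 0.54, adjusted p = 0.00154). Touchdome against IFE did not pass (2.72 ± 0.62, adjusted p = 0.114), though it did without Touchdome replicate 3 (1.81, adjusted p = 0.0174) or without Touchdome replicate 2 (adjusted p = 0.0379). The TPM ratio of Col5a2 over Col5a1 was 4.03, 5.39 and 3.45 in HF, 1.17, 0.755 and 0.983 in Touchdome and 0.514, 0.481 and 0.672 in IFE. HF thus lay above both other groups in each library. Col3a1 (ENSMUSG00000026043), the single chain of collagen III, showed another order, with 2.49, 1.43 and 19.7 CPM in Touchdome, 0, 0.0703 and 0.681 CPM in IFE and 0, 0 and 0.786 CPM in HF. All Touchdome libraries were above all others, and replicate 3 was the highest. Neither Touchdome comparison passed (adjusted p = 0.308 against IFE and 0.0704 against HF), although with the replicate block Touchdome was higher than IFE (5.25, adjusted p = 0.00448), and without Touchdome replicate 3 it was 2.83 (adjusted p = 0.779). Against HF, limma on log2(TPM + 1) and on log2(TPM + 0.1) called Touchdome higher for Col3a1.

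The remaining fibrillar chains were low. Col11a2 and Col27a1 passed the filter at 0.422 to 4.40 CPM and were called in no comparison. Col5a3 had 25 counts in Touchdome, 1 in IFE and 38 in HF, a ratio of HF over IFE of 48.6 with an exact 95% counting interval of 8.21 to 1969, which covers counting error only. Col2a1, Col11a1 and Col24a1 had 34, 7 and 9 counts in all 9 libraries together. Summed over the 11 fibrillar chains, TPM came to 13.1, 12.6 and 37.3 in Touchdome replicates 1 to 3, 2.07, 2.07 and 4.58 in IFE and 77.5, 58.2 and 80.8 in HF. The sum in Touchdome replicate 3 was the highest of its group and still below each HF library.

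Fibroblast markers were read beside these chains, since fibroblasts are a known source of collagens I, III and V. Of the 11 markers outside the collagens, 5 passed the filter. Dcn, a proteoglycan gene of the dermis, had 23.8, 25.3 and 16.4 CPM in Touchdome, 0.316, 0 and 0.0379 CPM in IFE and 0, 0 and 0.0655 CPM in HF. Pdgfra stood at 1.28, 0.447 and 1.66 CPM in Touchdome, 0, 0.0703 and 0.303 CPM in IFE and 0.503, 1.58 and 1.25 CPM in HF. Lum had 0 counts in Touchdome and HF, and Mfap5 had 0 counts in all 9 libraries. Over the whole list the summed level was 273 to 282 CPM in Touchdome, 191 to 311 CPM in IFE and 76.5 to 195 CPM in HF, most of it Thy1, Fn1 and Vim, which other skin cells can also express. Without these 3 it was 23.4 to 26.2 CPM, 0.0703 to 0.530 CPM and 0.731 to 1.58 CPM. Dcn alone made up most of this remainder in Touchdome. Of the 5 markers tested, 1 was called higher and 1 lower in HF than in IFE (17.1% and 16% of all genes, edgeR). Touchdome gave 1 higher and 0 lower against IFE (1.22% and 0.0798% of all genes), and 2 higher and 0 lower against HF (11.8% and 12.8%). The part of fibroblasts in the collagen values was not tested. In Touchdome replicate 3, Pdgfrb (1.99 CPM), Fbn1 (2.66 CPM), Col1a1, Col3a1 and Col6a3 were higher than in the other 8 libraries, while Dcn was lower than in Touchdome replicates 1 and 2. Its melanocyte markers were also high for the group (23.2 CPM summed, against 6.39 and 3.66 CPM in Touchdome replicates 1 and 2, and 2.92 to 3.94 CPM in IFE and 8.59 to 25.3 CPM in HF). 

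**Figure D3:**
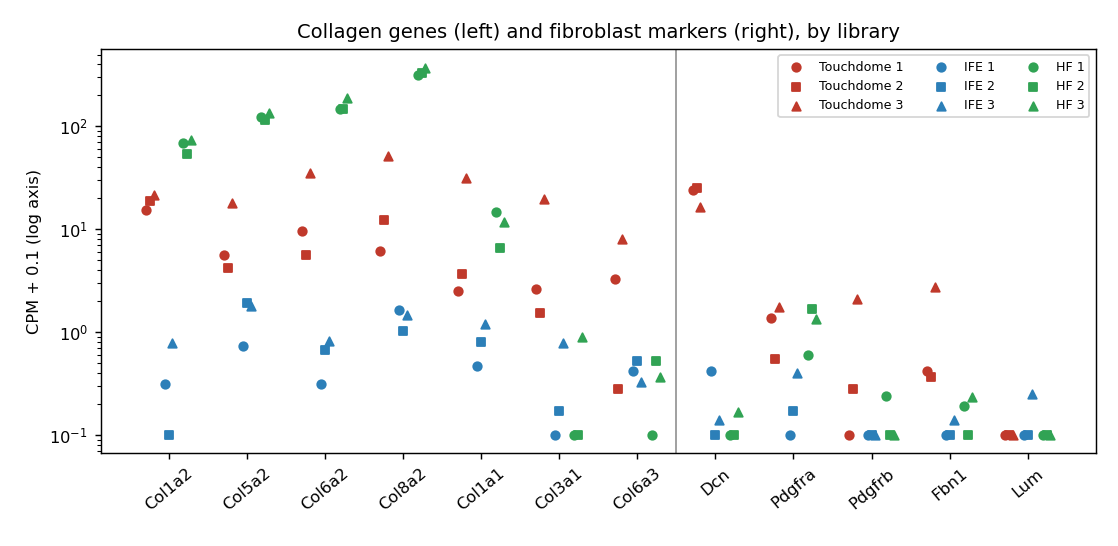
CPM (plus 0.1, log axis) of 7 collagen genes (left of the line) and 5 fibroblast markers (right) in each library (colour: group, symbol: replicate). HF libraries are the highest for Col1a2, Col5a2, Col6a2 and Col8a2, and Touchdome libraries for Dcn. Touchdome replicate 3 is the highest of all 9 for Col1a1, Col3a1, Col6a3, Pdgfrb and Fbn1.

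Markers of other cells were read the same way, and their part in the collagen values was not tested. Endothelial markers summed to 2.24 to 3.32 CPM in Touchdome, 0.719 to 0.842 CPM in IFE and 0 to 1.70 CPM in HF, and fat cell markers to at most 0.852 CPM in any library. Muscle and pericyte markers lay at 2.75 to 3.65 CPM, 2.80 to 2.95 CPM and 2.36 to 4.53 CPM. Of the dermal papilla and sheath list, Alpl was at 0 in IFE and HF, and Wif1 made up most of the 55.0 to 71.4 CPM in HF, against 11 to 14.5 CPM in Touchdome and 14.3 to 20.05 CPM in IFE. Among its 3 members tested, 2 were called higher and 1 lower in HF than in IFE (17.1% and 16% of all genes, edgeR). Touchdome gave 1 higher and 2 lower against HF (11.8% and 12.8% of all genes). Schwann cell markers, mainly Erbb3 and Mbp, summed to 273 to 292 CPM, 242 to 309 CPM and 159.9 to 193 CPM, and Merkel cell markers to 1.33 to 9.53 CPM, 0.114 to 0.316 CPM and 1.90 to 2.82 CPM, with Atoh1 and Sox2 at 0 in all 9 libraries. Immune markers, mainly Cd74, summed to 88.6 to 201 CPM, 72.0 to 153 CPM and 41.5 to 262 CPM, lowest in HF replicate 3. The 6 keratinocyte markers summed to 29395 to 34222 CPM, 38777 to 42472 CPM and 15172 to 16265 CPM.

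Among basement membrane chains, 8 of 9 were tested, of which 5 rose and 1 fell in HF relative to IFE (17.1% and 16% of all genes). Touchdome exceeded HF for 1 and lay below it for 4 (11.8% and 12.8% of all genes), and none was called between Touchdome and IFE. The collagen IV genes split by chain. Col4a1 (ENSMUSG00000031502) and Col4a2 (ENSMUSG00000031503), the pair of the common meshwork, were higher in HF. Col4a1 had 41.9, 59.7 and 73.0 CPM in Touchdome, 28.4, 30.3 and 49.3 CPM in IFE and 106, 117 and 136 CPM in HF. Col4a2 had 43.9, 79.0 and 80.5 CPM in Touchdome, 40.4, 52.4 and 59.6 CPM in IFE and 143, 165 and 179 CPM in HF. In CPM, HF lay above all other libraries for both, while Touchdome and IFE overlapped. In TPM, HF and Touchdome overlapped for Col4a1. There Touchdome replicate 3, at 47.1 TPM, was above HF replicates 1 and 2, at 33.4 and 31.1 TPM. HF exceeded IFE by 1.73 ± 0.25 for Col4a1 and 1.68 ± 0.23 for Col4a2 (adjusted p = 0.000347 and 0.0002, edgeR), and the value of Touchdome against HF was -1.04 ± 0.24 and -1.26 ± 0.22 on the log2 scale (adjusted p = 0.00998 and 0.00182), although limma on TPM did not call Col4a1 there (adjusted p 0.33 to 0.461 over its 3 settings) and did not call it in HF against IFE with no filter on low TPM (0.0594). Touchdome against IFE did not pass for either (adjusted p = 0.309 and 0.582), but with the replicate block Col4a1 was higher in Touchdome (0.70, adjusted p = 0.0182). In the RefSeq table these 2 genes lie head to head on chromosome 8, with start sites 21 bases apart, and the authors' strand setting is not given in the sources used here. Their TPM ratio, Col4a2 over Col4a1, was 0.875, 0.851 and 0.475 in Touchdome, 0.692, 1.06 and 0.829 in IFE and 1.27, 1.5 and 0.943 in HF. The counts per TPM of Col4a1, which follow the effective length given to it, varied by a factor of 2.53 between libraries. This ratio therefore also carries that length and is no measure of the chains alone.

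Col4a3 (ENSMUSG00000079465) and Col4a4 (ENSMUSG00000067158), whose chains join that of Col4a5 in the network known from the kidney filter, were low outside HF. Col4a3 had 0.575, 1.97 and 0.415 CPM in Touchdome, 0.210, 0.985 and 0.492 CPM in IFE and 16.7, 14.9 and 21.0 CPM in HF. Col4a4 had 1.47, 0.358 and 0.913 CPM in Touchdome, 0.316, 0.141 and 0.530 CPM in IFE and 34.8, 30.3 and 33.8 CPM in HF. For both, each HF library was above every other library by a wide margin, and Touchdome overlapped IFE. HF exceeded IFE by 5.01 ± 0.57 and 6.50 ± 0.41 on the log2 scale (adjusted p = 3.47e-05 and 2.12e-07, edgeR), and the value of Touchdome against HF was -4.18 ± 0.55 and -5.10 ± 0.38 (adjusted p = 0.000171 and 1.31e-06). All 4 calls held in the 18 alternatives. Against IFE, Touchdome did not pass for Col4a3 (0.82 ± 0.61, adjusted p = 0.75) or Col4a4 (1.39 ± 0.48, adjusted p = 0.271).

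The third pair ran the other way or not at all. Col4a5 (ENSMUSG00000031274) had 83.9, 88.5 and 97.4 CPM in Touchdome, 96.8, 56.1 and 109 CPM in IFE and 74.7, 63.9 and 70.2 CPM in HF, and no comparison passed (95% interval of HF against IFE -0.76 to 0.11). Without IFE replicate 2, the lowest library, HF was lower than IFE (-0.56, adjusted p = 0.00258) and lower than Touchdome (adjusted p = 0.0195). Col4a6 (ENSMUSG00000031273), its usual partner in epidermal basement membrane, had 143, 154 and 142 CPM in Touchdome, 174, 135 and 182 CPM in IFE and 87.2, 88.0 and 78.4 CPM in HF. HF lay below every other library. The difference was -0.95 ± 0.12 against IFE (adjusted p = 7.59e-05, edgeR), and Touchdome was higher than HF by 0.79 ± 0.12 (adjusted p = 0.000489). The TPM ratio of Col4a6 over Col4a5 was 1.38, 1.44 and 1.20 in Touchdome, 1.57, 1.65 and 1.41 in IFE and 0.901, 1.08 and 0.920 in HF, with HF below both others. Both genes lie head to head on chromosome X in the RefSeq table, with start sites 1343 bases apart. In HF the mean TPM of the 6 collagen IV chains ran from 3.59 (Col4a3) to 46.0 (Col4a2), and in IFE from 0.05 (Col4a4) to 38.1 (Col4a6).

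**Figure D4:**
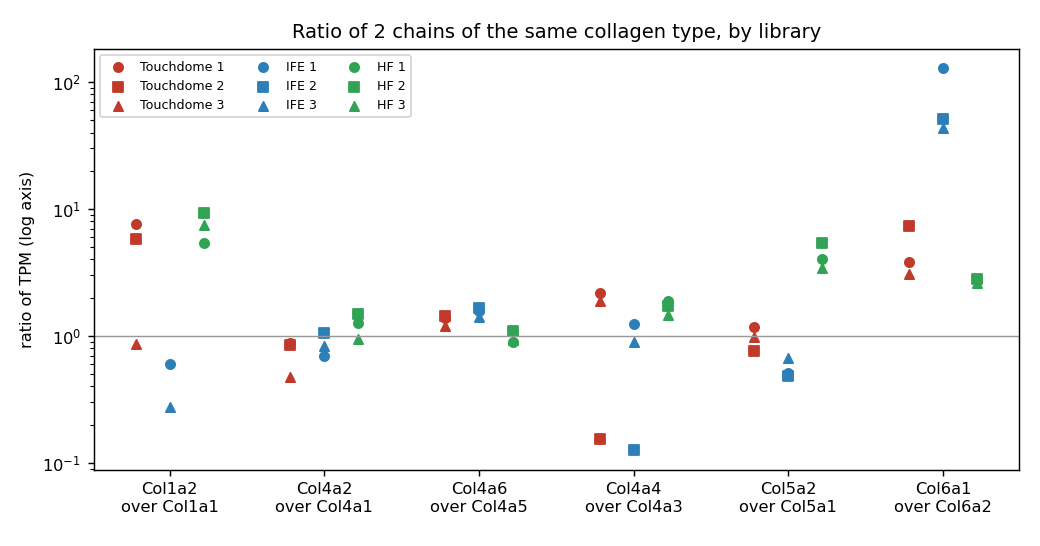
Ratio of the TPM of 2 chains of the same collagen type in each library (log axis; colour: group, symbol: replicate; the line marks 1). HF stands above the other groups for Col5a2 over Col5a1 and below them for Col4a6 over Col4a5 and Col6a1 over Col6a2; Col4a4 over Col4a3 in Touchdome and IFE and Col1a2 over Col1a1 in IFE rest on 22 to 46 counts per gene and group, and IFE replicate 2 had 0 counts of Col1a2 and no ratio.

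Beneath the basement membrane, Col7a1 (ENSMUSG00000025650), the anchoring fibril collagen, had 1061, 951 and 1033 CPM in Touchdome, 1203, 639.7 and 1214 CPM in IFE and 757, 608 and 747 CPM in HF. Touchdome lay above all HF libraries, but neither that difference (0.53 ± 0.21, adjusted p = 0.0895, edgeR) nor HF against IFE (-0.53 ± 0.21, adjusted p = 0.0701) passed. Without IFE replicate 2 both did (adjusted p = 0.00307 and 0.000353, the latter at -0.78). That library was low in CPM but less so in TPM, with 313, 289 and 333 TPM in IFE replicates 1 to 3. In TPM, HF (278, 192 and 295) overlapped IFE, so the HF and IFE values of this gene depend on the effective length given to it. Col18a1 (ENSMUSG00000001435), a heparan sulfate collagen whose end fragment is endostatin, had 333, 308 and 459 CPM in Touchdome, 316, 187 and 389 CPM in IFE and 508, 591 and 616 CPM in HF and was higher in HF than in IFE (0.94 ± 0.24, adjusted p = 0.0122), though not with no filter on low counts (adjusted p = 0.063). Touchdome against HF did not pass (-0.64 ± 0.24, adjusted p = 0.0819), but did without Touchdome replicate 3 (adjusted p = 0.0352) or without IFE replicates 2 or 3 (0.00883 to 0.046). Col15a1, of the same family, had 47 counts over 9 libraries. Summed over the 9 chains, basement membrane TPM was 554, 531 and 612 in Touchdome, 515, 419 and 562 in IFE and 603, 539.5 and 679 in HF, so the groups overlapped in the sum while single chains differed.

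The beaded filament collagen VI and the short-chain collagen VIII held the largest fitted log2 fold changes between HF and IFE among collagen genes, at Col6a2 and Col8a2. Col6a1 (ENSMUSG00000001119) had 36.2, 39.2 and 109 CPM in Touchdome, 28.8, 29.1 and 32.0 CPM in IFE and 402, 409 and 492 CPM in HF. Col6a2 (ENSMUSG00000020241) had 9.40, 5.45 and 35.0 CPM in Touchdome, 0.210, 0.563 and 0.719 CPM in IFE and 146, 147 and 190.0 CPM in HF. The groups did not overlap for either gene, and Touchdome replicate 3 was the highest of its group. HF exceeded IFE by 3.86 ± 0.43 and 8.27 ± 0.90 on the log2 scale (adjusted p = 0.00023 and 0.000375, edgeR), and the value of Touchdome against HF was -2.83 ± 0.41 and -3.28 ± 0.65 (adjusted p = 0.00144 and 0.00959). Against IFE, Touchdome missed the threshold for Col6a2 (4.99 ± 0.89, adjusted p = 0.0566) but was called under the replicate block, at 4.94 (adjusted p = 0.0153), and also when Touchdome replicate 3 was left out (3.85, adjusted p = 0.000256) or replicate 2 was (adjusted p = 0.0117). A filter of at least 1 CPM in 3 libraries and limma on log2(TPM + 1) and log2(TPM + 0.1) called Col6a2 too. Col6a1 did not pass (1.03 ± 0.39, adjusted p = 0.393, and 0.33 without Touchdome replicate 3). The TPM of Col6a1 over Col6a2 was 3.84, 7.33 and 3.07 in Touchdome, 129, 51.3 and 43.1 in IFE, where Col6a2 had 31 counts in all, and 2.74, 2.81 and 2.59 in HF.

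A collagen VI molecule is known to need a further chain, that of Col6a3 or its relatives. Col6a3 (ENSMUSG00000048126) did not pass the filter, with 3.20, 0.179 and 7.89 CPM in Touchdome, 0.316, 0.422 and 0.227 CPM in IFE and 0, 0.422 and 0.262 CPM in HF. HF, the group with the most Col6a1 and Col6a2, thus held 8 counts of it, against 147 in Touchdome, of which 95 were in replicate 3. Of the relatives, Col6a6 had 2.24, 5.69 and 6.23 CPM in HF, 0.639, 0.626 and 3.32 CPM in Touchdome and 1.000, 0.914 and 2.46 CPM in IFE and was called in no comparison. Without Touchdome replicate 3 it was higher in HF than in IFE (adjusted p = 0.0342) and than in Touchdome (0.00971). Col6a4 and Col6a5 had 3 and 0 counts in all 9 libraries.

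Col8a2 (ENSMUSG00000056174), a chain of collagen VIII, had 6.01, 12.1 and 51.5 CPM in Touchdome, 1.53, 0.914 and 1.36 CPM in IFE and 319, 329 and 374 CPM in HF. HF exceeded IFE by 8.03 ± 0.97 (adjusted p = 0.000785, edgeR) and the value of Touchdome against HF was -3.88 ± 0.76 (adjusted p = 0.0103), both called in all 18 alternatives. Touchdome against IFE did not pass (4.14 ± 0.90, adjusted p = 0.115), but did without Touchdome replicate 3 (2.77, adjusted p = 0.00056) or without Touchdome replicate 1 (adjusted p = 0.0165), and in limma on log2(TPM + 0.1). Its partner Col8a1 (ENSMUSG00000068196) had 9.08, 11.1 and 15.5 CPM in Touchdome, 8.94, 8.23 and 8.40 CPM in IFE and 8.50, 11.4 and 10.7 CPM in HF and was called in no comparison (95% interval of HF against IFE -0.25 to 0.75). Per length, Col8a2 ranked after Col17a1, Col7a1, Col18a1 and Col6a1 in HF, at 142 ± 11.8 TPM (SD, n = 3), and Col8a1 stood there at 3.58 ± 0.531 TPM. The bases before its start site, marked as above, held 4 GC box matches, of which 2 overlap, and had a GC content of 70.0%.
Col8a2 (chr4:126286544-126286793, plus strand): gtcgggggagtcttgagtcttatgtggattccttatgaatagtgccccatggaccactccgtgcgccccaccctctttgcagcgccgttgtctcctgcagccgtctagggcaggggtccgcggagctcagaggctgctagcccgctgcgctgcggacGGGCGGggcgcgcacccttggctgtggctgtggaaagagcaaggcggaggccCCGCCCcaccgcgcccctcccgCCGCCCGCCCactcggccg
Col10a1, the third short-chain gene, had 5 counts, all in IFE.

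FACIT chains sit on the surface of fibres and of basement membranes. Of 9 such genes 6 were tested, with 4 calls above and 1 below IFE in HF, where 17.1% and 16% of all genes were called. Touchdome gave 1 call above and 2 below HF (11.8% and 12.8% of all genes), and 1 above and 0 below IFE (1.22% and 0.0798%), so that single calls among 6 lie near these shares in the HF comparisons. Col16a1 (ENSMUSG00000040690), which encodes collagen XVI, had the highest mean TPM of them in each group and stood at 345, 334 and 334 CPM in Touchdome, 405, 281 and 536 CPM in IFE and 75.4, 59.4 and 78.3 CPM in HF. HF was lower than IFE, at -2.52 ± 0.21 on the log2 scale (adjusted p = 2.96e-06, edgeR), and Touchdome higher than HF by 2.25 ± 0.20 (adjusted p = 1.06e-05). Touchdome and IFE overlapped (-0.27 ± 0.19, 95% interval -0.69 to 0.15). Its upstream bases, marked as before, had a GC content of 75.6%.
Col16a1 (chr4:130047590-130047839, plus strand): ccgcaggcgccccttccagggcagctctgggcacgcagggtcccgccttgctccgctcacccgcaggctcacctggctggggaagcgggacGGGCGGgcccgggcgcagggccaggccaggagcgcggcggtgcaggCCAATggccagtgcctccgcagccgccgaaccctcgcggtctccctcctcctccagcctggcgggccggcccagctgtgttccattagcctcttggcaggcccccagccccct
Col12a1 (ENSMUSG00000032332), the chain of collagen XII, went the other way, with 263, 228 and 236 CPM in Touchdome, 94.2, 32.4 and 122 CPM in IFE and 220.3, 282 and 196 CPM in HF. It was higher in HF than in IFE (1.48 ± 0.41, adjusted p = 0.0262), though not without IFE replicate 1 (adjusted p = 0.0711), with no filter on low counts (0.0816) or without any 1 HF library (adjusted p 0.0512 to 0.0761). Touchdome lay above IFE in all libraries and did not pass (1.54 ± 0.41, adjusted p = 0.18), but did without IFE replicate 2, the lowest IFE library (adjusted p = 0.00738). It was also called by limma on log2(TPM + 1) and on log2(TPM + 0.1).

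Col14a1 (ENSMUSG00000022371), the chain of collagen XIV, had 0.703, 0.536 and 3.16 CPM in Touchdome, 0, 0.0703 and 0.0757 CPM in IFE and 6.03, 3.69 and 8.58 CPM in HF, with no overlap. IFE held 3 counts in all, so the ratio of summed counts is given: 28.1 for Touchdome over IFE (exact 95% counting interval 9.13 to 141) and 127 for HF over IFE (43.1 to 619.5). Both passed in edgeR (adjusted p = 0.0261 and 0.000102), as did Touchdome below HF (-2.07 ± 0.66, adjusted p = 0.0359). The call against IFE was lost in 8 of 17 alternatives, including without Touchdome replicate 3 (adjusted p = 0.0881), any 1 IFE library (0.073 to 0.109) or HF replicate 1 (0.0546). The call against HF was lost without Touchdome replicates 1 or 2 (adjusted p 0.115 to 0.135) or HF replicates 1 or 3 (0.0886 to 0.148). Col20a1 (ENSMUSG00000016356) had 13.0, 12.5 and 19.2 CPM in HF, above 7.42, 8.13 and 8.47 CPM in Touchdome and 8.26, 6.96 and 8.71 CPM in IFE, and was called against both (0.90 ± 0.22 for HF against IFE, adjusted p = 0.00656, and -0.90 ± 0.22 for Touchdome against HF, adjusted p = 0.0096, the latter lost in 3 of 18 alternatives, without HF replicate 3 (adjusted p = 0.0652) and in 2 of the limma settings on TPM (0.0636 to 0.0673)). Col9a2, a cartilage chain, was higher in HF than in IFE at low levels (1.42, 2.11 and 1.05 against 0, 0.352 and 0.0757 CPM, adjusted p = 0.0155), a call lost in 6 of 18 alternatives, including without IFE replicates 1 or 3 (adjusted p 0.0505 to 0.0785) or HF replicate 2 (0.0582). Col9a3 passed the filter and was called in no comparison, and Col19a1 had 12 counts in all. Of the 2 genes outside these classes, Col28a1 had 17 counts in all 9 libraries and Col26a1 none.

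Genes that process collagen were read from a list of 39, of which 33 were tested. In HF against IFE 14 were higher and 5 lower, in Touchdome against HF 4 were higher and 12 lower, and in Touchdome against IFE 1 was higher and 0 lower. The shares of all genes called were 17.1% and 16%, 11.8% and 12.8%, and 1.22% and 0.0798% in the same order. Adamts14, a protease that trims the N-terminal propeptide of fibrillar procollagens, had 158, 144 and 121 CPM in Touchdome, 257, 180.2 and 259 CPM in IFE and 4.16, 1.48 and 4.78 CPM in HF. It was lower in HF than in IFE (-5.99 ± 0.33 on the log2 scale, adjusted p = 9.21e-07, edgeR), opposite in direction to Col1a2, Col5a1 and Col5a2. Other proteases of that family on the list did not share this direction. Adamts3 was higher in HF than in IFE (3.58, adjusted p = 0.00956, edgeR, lost in 1 of 18 alternatives), and Adamts2 was not called (2.05, adjusted p = 0.129). Serpinh1, the collagen chaperone HSP47, had 137, 126 and 137 CPM in Touchdome, 125, 127 and 132 CPM in IFE and 226, 226 and 229.7 CPM in HF, and was higher in HF than in IFE by 0.83 ± 0.10 (adjusted p = 3e-05). P3h4, a partner of the hydroxylases, and Pcolce2, an enhancer of C-propeptide removal, were higher in HF too (1.05 ± 0.12 and 6.73 ± 0.81, adjusted p = 2.93e-05 and 3.85e-05). Sparc, which binds collagen outside the cell, was lower in Touchdome than in HF (-2.27 ± 0.28, adjusted p = 0.0003), as was Sec24d, which loads procollagen into transport vesicles (-0.81 ± 0.14, adjusted p = 0.000861). Tll1, a protease of the BMP1 family that removes C-propeptides, was the 1 gene called between Touchdome and IFE, with 3.39, 3.22 and 3.82 CPM against 0.421, 0.281 and 0.681 CPM (2.84 ± 0.37, adjusted p = 0.00243), and 8.73, 8.85 and 8.72 CPM in HF, which was higher than IFE (4.17 ± 0.38, adjusted p = 4.09e-06). Limma on TPM did not call Touchdome against IFE (adjusted p 0.124 to 0.365).

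Of 12 collagen receptor genes, 9 were tested. In HF against IFE 2 were higher and 3 lower (17.1% and 16% of all genes, edgeR). In Touchdome against HF 2 were higher and 2 lower (11.8% and 12.8% of all genes), and in Touchdome against IFE 0 and 0 (1.22% and 0.0798%). Mrc2, the endocytic receptor that takes up collagen fragments, had 44.8, 35.7 and 37.2 CPM in Touchdome, 43.1, 31.3 and 40.5 CPM in IFE and 1.46, 2.74 and 1.83 CPM in HF. HF was lower than IFE (-4.32 ± 0.23, adjusted p = 5.61e-08, edgeR). Itga1, the α chain of a receptor that binds collagen IV, had 4.60, 6.88 and 7.56 CPM in Touchdome, 1.79, 4.29 and 2.61 CPM in IFE and 33.0, 40.9 and 24.2 CPM in HF and was higher in HF by 3.52 ± 0.32 (adjusted p = 5.54e-06). Itga2, the α chain of a collagen I receptor of keratinocytes, had 95.6, 96.4 and 103 CPM in Touchdome, 129, 98.1 and 122 CPM in IFE and 80.8, 96.4 and 87.2 CPM in HF. It was lower in HF than in IFE (-0.40 ± 0.12, adjusted p = 0.023), though not without IFE replicates 1 or 3 (adjusted p 0.0771 to 0.0838) or HF replicates 1 or 3 (0.0641 to 0.103), nor in limma on TPM (0.577 to 0.659 over its 3 settings). Ddr2, a kinase receptor for fibrillar collagen, was lower in HF than in IFE (-2.29 ± 0.56, adjusted p = 0.00664), a call that limma on TPM did not make (adjusted p 0.0536 to 0.157). Adgrg6, an adhesion receptor that binds collagen IV, had 115, 133 and 128 CPM in Touchdome, 159.7, 117 and 159 CPM in IFE and 181, 184 and 222 CPM in HF. It was higher in HF than in IFE (0.43 ± 0.14, adjusted p = 0.0316), though not without IFE replicate 2 (adjusted p = 0.0863), without HF replicate 3 (0.138) or with only the 2 groups in the fit (0.0503). Touchdome against HF gave 4.35 ± 0.23 for Mrc2, 2.71 ± 0.56 for Ddr2, -2.37 ± 0.31 for Itga1 and -0.64 ± 0.14 for Adgrg6 (adjusted p = 1.16e-07, 0.00328, 0.000125 and 0.00462), with Ddr2 not called by limma with no filter on low TPM (0.116).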

How the data were processed

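Expected counts and TPM per Ensembl gene identifier were the authors' deposited values for 9 libraries, made from 50 ng of total RNA each and 150-nt paired reads, per the labels' protocols. The submitters' processing notes name the tools RSEM 1.3.3 and STAR 2.7.9a as well as DESeq2 1.38.2, and mm39 as build, without roles. The expected counts, whole (within 0.005) in 92.5% to 94.6% of rows of each library, were rounded here. Symbols for 52081 of 55357 identifiers came from an annotation table of another build, by identifier. Col4a3bp is no collagen chain and fell outside the rule.

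The main test was edgeR 4.0.16 (R 4.3.3), a robust quasi-likelihood fit to all 9 libraries with TMM scaling, after filterByExpr (minimum count 10, total 15) kept 15046 genes, with Benjamini-Hochberg adjustment over these and a threshold of 0.05. SEs were the log2 fold change over the square root of F. Same-numbered Touchdome and IFE libraries deviated together from their group means (correlations 0.146, 0.173 and 0.203), so these numbers were taken to pair them. The labels do not state such a pairing. The main test had no block, and the block was fitted over all 9 libraries, HF included. The blocked value is given where it changes a call. Each gene was refitted under 18 alternatives, among them DESeq2 1.42.0 and limma 3.58.1 on log2(TPM + 1). The fits were tested on simulated counts. Replicates of a group differed by more than sampling noise (chi-square over degrees of freedom 17.1 to 76.7). The members and lists were chosen with earlier results of these data known. Named processing and receptor genes are, per list and comparison, the called ones of smallest p, up to 5. Adamts2 and Adamts3 are named in addition, beside Adamts14. Counting intervals cover counting error only.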

Additional observations from a re-analysis of the deposited data

How the results depend on the processing

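The collagen counts moved most in Touchdome against IFE (3 higher and 0 lower). DESeq2 gave 8 higher and 1 lower, the replicate block 6 and 1, and limma on log2(TPM + 1) with no filter on low TPM 1 higher. Leaving out 1 library gave 2 to 6 higher (2 without IFE replicates 1 or 3 or HF replicate 1, 6 without Touchdome replicate 2) and 0 to 1 lower. In Touchdome against HF the block and the fit of only the 2 groups each gave 5 higher against 3, and leaving out 1 library gave 3 to 6 higher and 10 to 15 lower. In HF against IFE leaving out 1 library gave 14 to 18 higher and 3 to 5 lower. Pairing of HF by replicate number was not clear. Correlations of deviations at the same number were -0.0257 to 0.0701 with Touchdome and -0.00828 to 0.0592 with IFE, positive for numbers 1 and 3 and negative for number 2. At different numbers they were -0.0807 to 0.0430 and -0.0624 to 0.0133. Apart from the calls named in the text, the block added Col18a1, Col7a1, Col3a1 and Col6a6 in Touchdome against HF (adjusted p 0.000331 to 0.0274) and Col7a1 and Col6a6 in HF against IFE (0.0216 to 0.0321), and ended no collagen call. Over all genes, Touchdome against IFE (184 higher, 12 lower) gave 446 and 84 with DESeq2, 282 and 67 with the replicate block, 100 and 5 with only the 2 groups, 100 and 0 with limma on log2(TPM + 1), 50 and 0 with limma and no filter, 0 lower with limma on log2(TPM + 0.1), 49 lower with no filter on low counts, and 105 to 216 higher and 4 to 29 lower without 1 library. Touchdome against HF gave 1069 higher with limma and no filter, against 1773, and 1393 to 2126 higher and 1324 to 2220 lower without 1 library. In HF against IFE (2571 higher, 2401 lower) limma gave 1209 lower on log2(TPM + 1), 1219 on log2(TPM + 0.1) and 1071 with no filter. On log2(TPM + 1) the median of all genes stood at 0.19 there and the share of higher calls went from 51.7% to 71.2%. Without 1 library the counts were 2168 to 2627 higher and 1885 to 2379 lower. Col1a1 in Touchdome against HF went from 0.15 to -1.88 without Touchdome replicate 3 (adjusted p = 0.0126, edgeR), and to as much as 0.67 without another library. The log2 ratio of summed beaded filament levels in HF over IFE was 4.47 in TPM and 4.21 in CPM. The processing and receptor lists, whose alternatives were chosen after seeing the data, gave 12 to 15 higher and 2 to 6 lower, and 1 to 3 and 1 to 3, in HF against IFE. The cause of these shifts was not tested. The scarcest chains in IFE lay near the counting floor, where 3 counts came to 0.158, 0.211 and 0.114 CPM in replicates 1 to 3. There Col14a1 and Col5a3 had 3 and 1 counts in all. IFE was not the shallowest group, since 3 counts came to 0.192 to 0.268 CPM in Touchdome and 0.137 to 0.316 CPM in HF.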

Other observations

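The deposited TPM and counts of Col4a1 did not move in step. Its counts per TPM, which follow the effective length given to the gene, varied by a factor of 2.53 between the highest and the lowest library after scaling, at or above which lay 1.29% of the 8703 genes with at least 100 counts in each library (median 1.22). In Touchdome it had 12.8, 24.3 and 47.1 TPM beside 41.9, 59.7 and 73.0 CPM. For Col7a1 the factor was 2.00 and for Col12a1 1.76. In both, IFE replicate 2 was the lowest library, at 0.587 and 0.630 of the gene's median.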
